A study of Homo sapiens with 19 samples.

Results

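The 10 genes described here, AXIN2, NKD1, ZNRF3, RNF43, NOTUM, DKK1, LGR5, SP5, TCF7 and GLUL, are widely used as readouts of Wnt and β-catenin signalling, and were chosen by name from 34825 gene symbols. Their levels were read in HepG2 cells after siRNA against INO80, after siRNA against MCRS1, and after the EZH2 inhibitor EPZ-6438. All 10 passed the filter on low values in both experiments, so none is left out below. ZNRF3 was higher and NOTUM lower in each of the 4 siRNA comparisons, and no other member was called in the same direction in all 4 as reported. AXIN2 was called higher in 3 of them, and in the fourth, with siINO80#2, it was called only in a fit blocked on the letters of the libraries. The share of all genes called in the same direction in all 4 was not counted.

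In the canonical Wnt pathway, a Wnt ligand bound to a Frizzled receptor and an LRP co-receptor inhibits the cytoplasmic complex that marks β-catenin for destruction, and the β-catenin that accumulates acts in the nucleus with TCF and LEF factors. Many of the genes switched on in this way are brakes on the same pathway. In the liver the pathway is active around the central vein, where it maintains glutamine synthesis and other pericentral functions. HepG2 is a human hepatoblastoma-derived liver cancer line whose β-catenin gene carries a mutation that removes the sites through which the destruction complex acts, so its target genes are expressed without added ligand.

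INO80 is the ATPase of the chromatin remodeling complex of the same name, MCRS1 is one of its accessory subunits, and EPZ-6438 blocks the methyltransferase EZH2, which places the repressive mark H3K27me3. All groups were the same cell line, transfected with 50 nM siRNA and harvested 72 h later. The first experiment compared a control siRNA, named NTG, with a pair of siRNAs against INO80, named siINO80#1 and siINO80#2, in 3 libraries each. In the second, cells were given 1 uM EPZ-6438, or DMSO as the vehicle control, from 3 days before transfection. They were transfected with NTG or with siRNA against MCRS1, named siMCRS1. This second experiment held 2 libraries of DMSO with NTG, 3 of DMSO with siMCRS1, 3 of EPZ-6438 with NTG and 2 of EPZ-6438 with siMCRS1. Values are normalized counts, meaning gene counts divided by a size factor for each library, and the recovered depth was 17093574 to 25369547 reads in the first experiment and 26038505 to 47397233 in the second. Groups were compared with limma on log2(normalized count + 1) over all genes of an experiment with a mean of at least 10, and a gene was called at a Benjamini-Hochberg adjusted p under 0.05. The experiments were normalized separately, so levels were compared only within each. Nothing states that libraries of a group came from separate cultures, so p-values measure only the spread between these libraries. Fewer cells of a kind and less RNA per cell cannot be told apart in such bulk samples.

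The targeted genes were lower where the labels say so. INO80 fell from 1264 normalized counts in NTG to 608 with siINO80#1 (log2 fold change -1.05, limma adjusted p = 5.1e-06) and 459.6 with siINO80#2 (-1.46, 3.59e-07). MCRS1 fell by 3.66 on the log2 scale with siMCRS1, both in DMSO (limma adjusted p = 5.94e-06) and in EPZ-6438 (3.49e-06), and INO80 fell by 0.27 and 0.35 in the same comparisons (0.0387 and 0.00966). EZH2 was also lower with siINO80#2 (-0.47, limma adjusted p = 0.000549). Of 13 hepatocyte and hepatoma markers all passed the filter in both experiments, led by APOB, and of 12 markers of mesenchymal, endothelial and immune cells 6 passed in the first experiment and 9 in the second. The summed level of these 12 was 1477 to 2933 in the libraries of the first and 1854 to 4983 in those of the second, against 650239 to 1089293 and 1025386 to 1410976 for the 13. The T-cell marker CD3E was at 0 in all libraries of the first and at no more than 3.23 in the second. The highest means among the 12 were those of CD68 in the first (1002) and ACTA2 in the second (940). The lowest means among the 13 were 687 in the first and 1042 in the second.

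The members lie on 8 chromosomes. On GRCh38, in RefSeq's annotation, AXIN2 spans chr17:65528563-65561648, NKD1 chr16:50548396-50649249, ZNRF3 chr22:28883572-29057488, RNF43 chr17:58352500-58417534 and NOTUM chr17:81952507-81961187. DKK1 spans chr10:52314281-52317657, LGR5 chr12:71439129-71586310, SP5 chr2:170715337-170718078, TCF7 chr5:134108218-134148210 and GLUL chr1:182378098-182391790. Promoter sequence was at hand for 5 members (SP5, DKK1, GLUL, TCF7 and RNF43). These windows, the 250 bases before a RefSeq start, were searched on both strands for CTTTGA, the core of the site bound by TCF and LEF factors, and for the longer CTTTGAT, which contains it. SP5 held 3 matches to the core, 1 of them also the longer form, and DKK1 held 2, while the windows of GLUL, TCF7 and RNF43 held none. The core was present in 11.21% and the longer form in 2.26% of 35116 RefSeq windows of the same length. The windows with a match are shown because they carry letters the pathway's own factors are known to read, with the matches to the core, or to its reverse complement, in capitals. The SP5 window is chr2:170715087-170715336 and the DKK1 window chr10:52314031-52314280, both on the plus strand of GRCh38.
SP5: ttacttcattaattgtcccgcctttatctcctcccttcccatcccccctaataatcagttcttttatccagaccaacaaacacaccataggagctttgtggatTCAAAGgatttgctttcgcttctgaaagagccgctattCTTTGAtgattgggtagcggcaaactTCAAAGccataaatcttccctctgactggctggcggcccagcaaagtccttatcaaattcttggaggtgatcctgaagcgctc
DKK1: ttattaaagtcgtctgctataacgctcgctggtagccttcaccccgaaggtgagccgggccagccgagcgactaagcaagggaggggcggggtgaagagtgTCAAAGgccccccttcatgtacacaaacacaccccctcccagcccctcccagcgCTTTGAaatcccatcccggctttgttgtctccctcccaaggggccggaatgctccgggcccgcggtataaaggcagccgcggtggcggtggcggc
A match is a description of these letters and not evidence of binding. In the values below, SP5 was higher with siINO80#1 and not called with siINO80#2, whereas DKK1 was not called with siINO80#1 and lower with siINO80#2.

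In the control libraries all 10 genes were well expressed. Per kilobase of the longest coding transcript in the GENCODE annotation, DKK1 was the highest in NTG at 2295 normalized counts per kb, followed by NOTUM at 1849 and GLUL at 973. ZNRF3 was the lowest at 196, which still placed it above 67.7% of the 16027 genes with a value above 0. In DMSO with NTG the order again began with DKK1 (5721) and NOTUM (4381), and TCF7 was the lowest at 375. The pseudogenes GLULP3 to GLULP6, which could share reads with GLUL, never exceeded 2.84 normalized counts in any library. TCF7 shares exonic sequence with SKP1 on the opposite strand, and whether the counting used strand is not given, so its values are uncertain. Exons of AXIN2 and RNF43 overlap those of other genes on the same strand, and exons of DKK1, LGR5, NKD1, NOTUM and RNF43 overlap others on the opposite strand. These overlapping genes have no values under their GENCODE names in either experiment, so their part in the reads is unknown.

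After knockdown of INO80, NKD1, ZNRF3, RNF43 and LGR5 were higher with each siRNA and NOTUM was lower with each. With siINO80#1, 6 of the 10 were higher (AXIN2, NKD1, ZNRF3, RNF43, LGR5 and SP5) and NOTUM was lower, against 20.7% of 14034 tested genes called higher and 20.8% called lower. With siINO80#2, 4 were higher (NKD1, ZNRF3, RNF43 and LGR5) and 3 were lower (NOTUM, DKK1 and GLUL), against 26.6% and 28.4% of all genes. The median log2 fold change of the members was 0.31 with siINO80#1 and 0.15 with siINO80#2, against 0.00095 and 1.6e-05 over all tested genes. The comparisons share the NTG libraries. With libraries rescaled to equal totals, the share of called genes that were higher moved from 49.9% to 39.8% with siINO80#1 and from 48.3% to 38.7% with siINO80#2, and no called member changed direction. At equal totals 5 members were called with siINO80#1, without AXIN2 and RNF43 (limma adjusted p = 0.135 and 0.141), and 7 with siINO80#2.

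**Figure D1:**
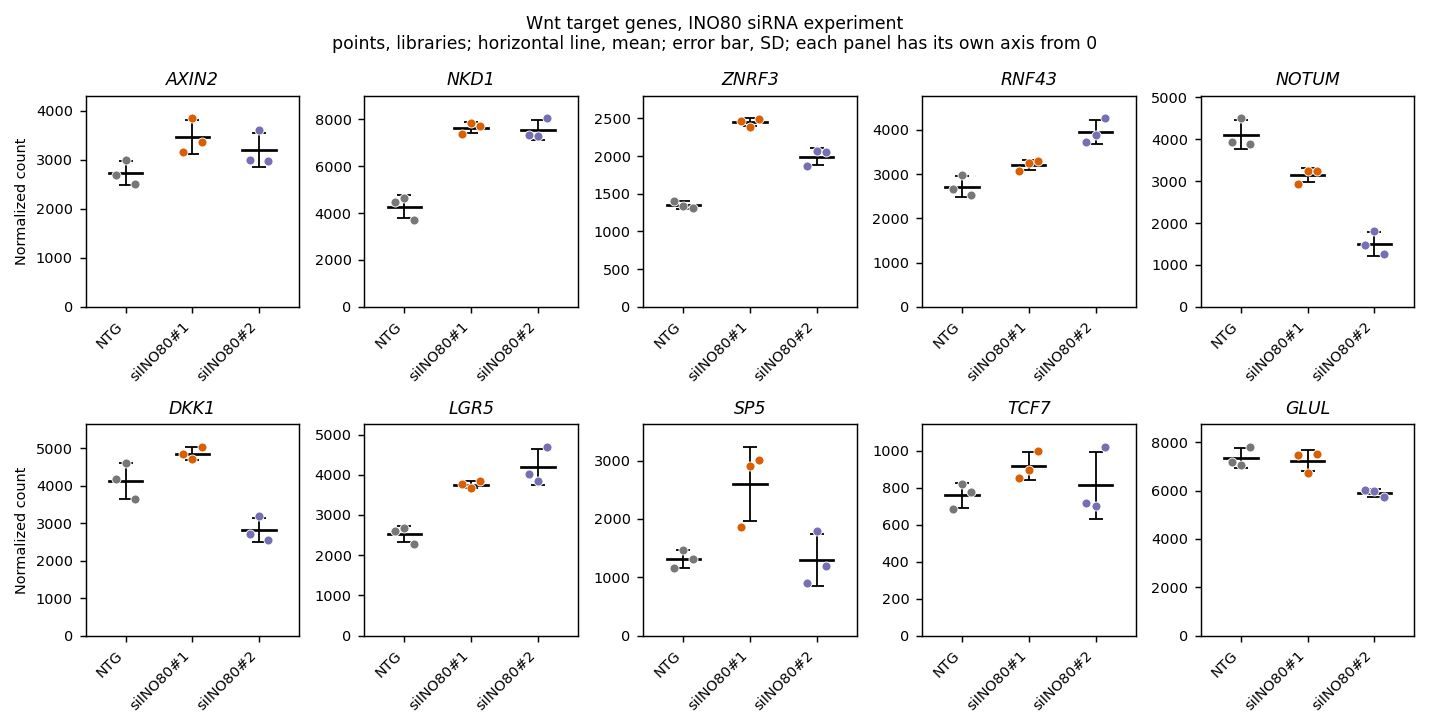
Normalized counts of the 10 members (vertical axes, each from 0) in the NTG, siINO80#1 and siINO80#2 libraries (horizontal axes), as points with the mean and SD. NKD1, ZNRF3, RNF43 and LGR5 libraries of both siRNAs lie above all 3 NTG libraries, and NOTUM libraries of both lie below them.

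NKD1, which binds Dishevelled and restrains the pathway, rose with both siRNAs. Its 3 NTG libraries held 4485, 4627 and 3709 normalized counts, the siINO80#1 libraries 7371, 7852 and 7691, and the siINO80#2 libraries 7322, 7302 and 8044. All 6 knockdown libraries lay above all NTG libraries, and the siRNAs could not be separated from each other (log2 difference of siINO80#2 from siINO80#1 -0.02, 95% interval -0.21 to 0.18). The log2 fold change was 0.84 ± 0.09 (SE) with siINO80#1 (limma adjusted p = 4.42e-05) and 0.83 ± 0.09 (SE) with siINO80#2 (limma adjusted p = 2.33e-05).

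ZNRF3 and RNF43 are related membrane E3 ubiquitin ligases that remove Frizzled receptors from the cell surface. ZNRF3 stood at 1401, 1342 and 1308 in NTG, 2461, 2388 and 2494 with siINO80#1 and 1868, 2063 and 2049 with siINO80#2. Its groups did not overlap, with siINO80#1 the highest. The increase was 0.86 ± 0.07 (SE) on the log2 scale with siINO80#1 (limma adjusted p = 5.39e-06) and 0.56 ± 0.07 (SE) with siINO80#2 (limma adjusted p = 3.93e-05). RNF43 stood at 2661, 2978 and 2519 in NTG, 3071, 3240.1 and 3303 with siINO80#1 and 3724, 3884 and 4264 with siINO80#2, so here siINO80#2 was the highest. Its change of 0.54 ± 0.08 (SE) with siINO80#2 was called (limma adjusted p = 0.000209). The change of 0.24 ± 0.08 (SE) with siINO80#1 was called by a small margin (limma adjusted p = 0.0341) and was lost when any of 4 libraries (NTG replicates A and C, siINO80#1 replicates B and C) was left out, where the adjusted p ranged from 0.093 to 0.13. It was also lost at equal totals (limma adjusted p = 0.141), under quantile normalization (0.0847), without a filter (0.058) and without a trend in the variance (0.0634).

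AXIN2, a scaffold of the destruction complex and a widely used transcriptional readout of the pathway, was called higher with siINO80#1 and not called with siINO80#2. Its NTG libraries held 2685, 2985 and 2503, the siINO80#1 libraries 3161, 3843 and 3363 and the siINO80#2 libraries 2999.7, 3599 and 2981. The siINO80#1 libraries lay above all NTG libraries, while the lowest siINO80#2 library lay just below the highest NTG library. The log2 fold change was 0.34 ± 0.10 (SE) with siINO80#1 (limma adjusted p = 0.0212) and 0.23 ± 0.10 (SE) with siINO80#2, which was not called (0.0844). Without NTG replicate A, NTG replicate C or siINO80#1 replicate B, AXIN2 was no longer called with siINO80#1 (limma adjusted p = 0.0602, 0.0862 and 0.0907), nor was it at equal totals (0.135) or under quantile normalization (0.0502). In the fit blocked on library letters, the difference with siINO80#2 was called (0.23, limma adjusted p = 0.00996).

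The 2 secreted members, NOTUM and DKK1, were both lower with siINO80#2. NOTUM, an enzyme that strips the lipid from Wnt ligands and inactivates them, held 3943, 4504 and 3887 in NTG, 2941, 3245 and 3253 with siINO80#1 and 1464, 1812 and 1249 with siINO80#2. Its groups did not overlap, and the siINO80#2 libraries were far below both others. NOTUM fell by 0.38 on the log2 scale with siINO80#1 (SE 0.12, limma adjusted p = 0.0261) and by 1.46 with siINO80#2 (SE 0.12, limma adjusted p = 4.23e-06). The smaller change was not called when NTG replicate B or any single siINO80#1 library was left out (limma adjusted p = 0.0512 to 0.0971), nor without a trend in the variance (0.0548). DKK1, which blocks the LRP co-receptors, held 4191, 4598 and 3639.5 in NTG, 4847, 4707 and 5039 with siINO80#1 and 2720.4, 3188 and 2559 with siINO80#2. The siINO80#2 libraries lay below all others and the siINO80#1 libraries above all others. DKK1 fell by 0.55 with siINO80#2 (SE 0.10, limma adjusted p = 0.000878), and its difference of 0.24 ± 0.10 (SE) with siINO80#1 was not called (limma adjusted p = 0.0843). That difference was called without NTG replicate B (0.0426) or siINO80#2 replicate C (0.0492), or with only the groups compared (0.0399).

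LGR5, a receptor for R-spondins, which protect Frizzled from ZNRF3 and RNF43, held 2606, 2665 and 2289 in NTG, 3766, 3662 and 3834 with siINO80#1 and 4012, 3848 and 4689.6 with siINO80#2. Every knockdown library was above every NTG library. The log2 fold change was 0.58 ± 0.09 (SE) with siINO80#1 (limma adjusted p = 0.000445) and 0.73 ± 0.09 (SE) with siINO80#2 (limma adjusted p = 4.98e-05).

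SP5, a zinc-finger transcription factor that feeds back on Wnt targets, held 1158, 1468 and 1312 in NTG, 1860.0, 2914 and 3008 with siINO80#1 and 908, 1787 and 1184 with siINO80#2. Its standard error was the largest among the members. The siINO80#1 libraries lay above all others and the siINO80#2 libraries spanned the NTG range. SP5 was 1.98 times its NTG mean with siINO80#1 (log2 fold change 0.96 ± 0.24 (SE), limma adjusted p = 0.00805) and 0.98 times it with siINO80#2 (-0.07 ± 0.24 (SE), limma adjusted p = 0.816).

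TCF7, the gene for TCF1, a DNA-binding partner of β-catenin, held 683, 818 and 774 in NTG, 854, 895 and 998 with siINO80#1 and 717, 699 and 1019 with siINO80#2. Replicate C of siINO80#2 was the highest library and the other 2 of its group lay within the NTG range. Neither difference was called (log2 0.27 ± 0.14 (SE) and 0.08 ± 0.14 (SE), limma adjusted p = 0.142 and 0.648). Without siINO80#2 replicate C, which shares the estimate of the spread, the difference with siINO80#1 was called (limma adjusted p = 0.0216). GLUL, glutamine synthetase and the classical pericentral target, held 7188, 7056 and 7801 in NTG, 7457, 6734 and 7512 with siINO80#1 and 6006, 5967 and 5731 with siINO80#2. Only the siINO80#2 libraries stood apart, below the rest. GLUL fell by 0.32 on the log2 scale with siINO80#2 (SE 0.07, limma adjusted p = 0.00338), and with siINO80#1 the 95% interval of the difference was -0.18 to 0.14.

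The siRNAs against INO80 differed from each other directly at 6 members. RNF43 was higher with siINO80#2 (log2 difference 0.30), and SP5 (-1.03), NOTUM (-1.08), DKK1 (-0.79), ZNRF3 (-0.30) and GLUL (-0.29) were lower, with limma adjusted p from 0.000347 to 0.0223. Over all tested genes 9.48% were higher and 12.6% lower. INO80 itself was at 608 with siINO80#1 and 459.6 with siINO80#2. The calls of RNF43 and GLUL were lost without siINO80#1 replicate A (limma adjusted p = 0.0834 and 0.0627), RNF43's also without replicate B (0.0581) and GLUL's also without replicate C (0.0656). AXIN2, LGR5, NKD1 and TCF7 were not called between the siRNAs, with 95% intervals of -0.34 to 0.11, -0.04 to 0.35, -0.21 to 0.18 and -0.50 to 0.11. Without siINO80#2 replicate C, TCF7 was called lower (-0.37, limma adjusted p = 0.0214).

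After knockdown of MCRS1, AXIN2 and ZNRF3 were higher and NOTUM was lower in both treatments. In DMSO, AXIN2, ZNRF3 and SP5 were higher and NOTUM was lower, against 23.1% of 14312 tested genes called higher and 24.6% called lower. In EPZ-6438, AXIN2 and ZNRF3 were higher and NOTUM and DKK1 were lower, against 26.8% and 26.9%. In both treatments the members called in each direction were near or below these shares. The median of the members was 0.08 in DMSO and -0.02 in EPZ-6438. The siMCRS1 libraries had larger normalized totals (37296662 to 40177962) than the NTG libraries (31332572 to 33672033), and rescaling to equal totals moved the median of all genes from 0.0017 to -0.23 under DMSO and from 0.0060 to -0.23 under EPZ-6438. The share of called genes that were higher then moved from 48.4% to 27.1% and from 49.9% to 30.2%. At equal totals 2 members were higher and 2 lower in DMSO (AXIN2 and ZNRF3, NOTUM and DKK1), and 2 were higher and 5 lower in EPZ-6438. No called member changed direction.

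**Figure D2:**
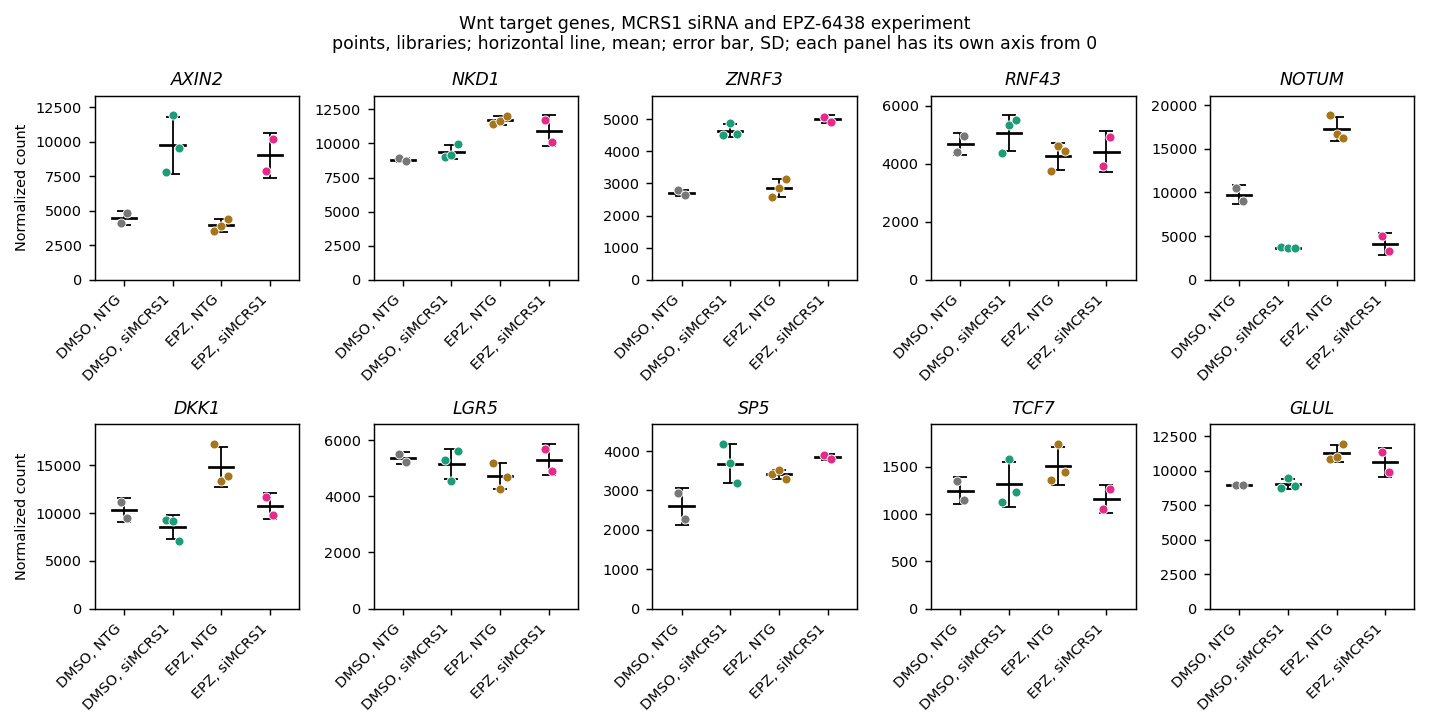
Normalized counts of the 10 members (vertical axes, each from 0) in the 4 groups of the MCRS1 and EPZ-6438 experiment (horizontal axes), as points with the mean and SD. AXIN2 and ZNRF3 libraries of both siMCRS1 groups lie above all NTG libraries and NOTUM libraries of both lie below them, while NOTUM is highest in EPZ-6438 with NTG.

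AXIN2 held 4107 and 4859.5 normalized counts in DMSO with NTG and 7817, 11922 and 9547 in DMSO with siMCRS1. In EPZ-6438 it held 3507, 3924 and 4395 with NTG and 7876 and 10193 with siMCRS1. The lowest siMCRS1 library was above the highest NTG library whatever the treatment. The level with siMCRS1 was 2.18 times that with NTG in DMSO (log2 fold change 1.11 ± 0.18 (SE), limma adjusted p = 0.000599) and 2.29 times in EPZ-6438 (1.19 ± 0.18 (SE), 0.000282).

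ZNRF3 held 2781 and 2639.7 in DMSO with NTG, 4507, 4875 and 4549 in DMSO with siMCRS1, 2573, 2868 and 3139 in EPZ-6438 with NTG and 5084 and 4904 in EPZ-6438 with siMCRS1. The siMCRS1 libraries were tightly grouped and did not overlap those of NTG. The log2 fold change was 0.78 ± 0.10 (SE) in DMSO (limma adjusted p = 0.000173) and 0.81 ± 0.10 (SE) in EPZ-6438 (limma adjusted p = 9.1e-05). Its relative RNF43 ranged from 4416 to 4937 in DMSO with NTG, 4355 to 5492 in DMSO with siMCRS1, 3737 to 4601 in EPZ-6438 with NTG and 3906 to 4915 in EPZ-6438 with siMCRS1. These ranges overlapped and RNF43 was not called in DMSO or EPZ-6438 (95% intervals -0.21 to 0.42 and -0.27 to 0.36).

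NOTUM was the member with the largest fall. It held 10494 and 8985 in DMSO with NTG and 3737, 3655 and 3617 in DMSO with siMCRS1. In EPZ-6438 it held 18829, 16696 and 16253 with NTG and 5026 and 3239.7 with siMCRS1. The siMCRS1 libraries of both treatments lay below every NTG library, and those in DMSO fell within a narrow range. NOTUM fell by 1.40 on the log2 scale in DMSO (SE 0.16, limma adjusted p = 8.71e-05) and fell by 2.09 in EPZ-6438 (SE 0.16, limma adjusted p = 7.6e-06).

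DKK1 held 11199 and 9456 in DMSO with NTG, 9327, 9194 and 7100.2 in DMSO with siMCRS1, 17242, 13419.9 and 13898 in EPZ-6438 with NTG and 11717 and 9822 in EPZ-6438 with siMCRS1. Within each treatment the siMCRS1 libraries lay below the NTG libraries. DKK1 was called lower in EPZ-6438 (-0.46 ± 0.16 (SE), limma adjusted p = 0.0284) and not in DMSO (-0.28 ± 0.16 (SE), 0.164). In EPZ-6438 the call was lost without NTG replicate 1 (limma adjusted p = 0.0822) or siMCRS1 replicate B (0.22), and it was also lost without a filter (0.0504) and without a trend in the variance (0.0553). In DMSO, DKK1 was called with libraries at equal totals (-0.52, limma adjusted p = 0.0166), under quantile normalization (-0.57, 0.0093) and with the column numbers 1 and 3 as a block (-0.34, 0.00335), which was chosen after the values were seen and gave 5 called members in place of 4.

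SP5 held 2935 and 2265 in DMSO with NTG, 4169.9, 3699.7 and 3178 in DMSO with siMCRS1, 3409.9, 3519 and 3304 in EPZ-6438 with NTG and 3909.6 and 3802 in EPZ-6438 with siMCRS1. The DMSO with NTG libraries were the lowest. SP5 was higher with siMCRS1 in DMSO (0.51 ± 0.13 (SE), limma adjusted p = 0.00959). That call was lost at equal totals (limma adjusted p = 0.0898) and under quantile normalization (0.0584). Without DMSO with NTG replicate 3, which leaves only replicate 1 in that group, the difference was 0.32. In EPZ-6438 the difference was 0.18 ± 0.13 (SE) and was not called (limma adjusted p = 0.288).

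NKD1 and LGR5, which were higher with both INO80 siRNAs, were not called with siMCRS1. NKD1 held 8918 and 8684 in DMSO with NTG, 9041, 9162 and 9946 in DMSO with siMCRS1, 11410.4, 11665 and 12029.7 in EPZ-6438 with NTG and 11735 and 10132 in EPZ-6438 with siMCRS1. Its siMCRS1 difference was 0.09 in DMSO (95% interval -0.12 to 0.30) and -0.10 in EPZ-6438 (-0.31 to 0.11). LGR5 lay between 5221 to 5519 in DMSO with NTG, 4549 to 5602 in DMSO with siMCRS1, 4259.7 to 5202 in EPZ-6438 with NTG and 4918 to 5702 in EPZ-6438 with siMCRS1, with 95% intervals of the siMCRS1 difference of -0.34 to 0.20 (DMSO) and -0.10 to 0.44 (EPZ-6438). The siINO80 and siMCRS1 changes were measured in separate experiments and their difference was not tested.

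TCF7 ranged over 1144 to 1351 in DMSO with NTG, 1133 to 1584 in DMSO with siMCRS1, 1356 to 1741 in EPZ-6438 with NTG and 1050.4 to 1265 in EPZ-6438 with siMCRS1. It was not called with siMCRS1 (log2 0.07 in DMSO and -0.38 in EPZ-6438, limma adjusted p = 0.766 and 0.0717). GLUL held 8938 and 8975 in DMSO with NTG, 8756, 9447 and 8865 in DMSO with siMCRS1, 10821, 10972 and 11918 in EPZ-6438 with NTG and 11358 and 9861 in EPZ-6438 with siMCRS1. Neither GLUL difference was called (95% intervals -0.20 to 0.22 and -0.30 to 0.13). At equal totals GLUL, NKD1 and TCF7 were called lower by siMCRS1 under EPZ-6438 (-0.32, -0.34 and -0.62, against a median of -0.23 over all genes).

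EPZ-6438 alone gave no called member by limma in cells with NTG, where 0.384% of 14312 genes were called. Without adjustment 5 of the 10 members had a p under 0.05, against 2443 of 14312 genes. All 5 were higher with EPZ-6438: NOTUM (log2 0.83, limma adjusted p = 0.0625), NKD1 (0.41, 0.088), GLUL (0.33, 0.133), DKK1 (0.52, 0.141) and SP5 (0.40, 0.174). The libraries of each of these 5 did not overlap between EPZ-6438 and DMSO, as their values above show. Neither did those of TCF7 (log2 0.28, limma adjusted p = 0.429) and of LGR5, which was lower (-0.19, 0.463). The share of all genes separated in this way, with 3 libraries against 2, was not counted, so no weight is placed on this separation. NOTUM in particular was at 17259 ± 1377 (SD, n = 3) in EPZ-6438 against 9739.7 ± 1067 (SD, n = 2) in DMSO. The outcome depended on the tool. On the recovered reads edgeR called none of the 10 and DESeq2 called 4 (NOTUM, NKD1, DKK1 and GLUL, adjusted p from 0.000165 to 0.0313), where DESeq2 called 5.04% of all genes. Treating the column numbers 1 and 3 as a block, a setting chosen after the values were seen, limma called 5 (the same 4 and SP5), where it called 14.9% of all genes. AXIN2, LGR5, RNF43, ZNRF3 and TCF7 had adjusted p of 0.429 or more with limma, and AXIN2 lay at -0.19 (95% interval -0.58 to 0.21).

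In cells with siMCRS1, EPZ-6438 gave no called member by limma, edgeR or DESeq2, against 0.0908% of all genes by limma. GLUL (log2 0.23) and NKD1 (0.22) had an unadjusted p under 0.05 with limma, against 1305 of 14312 genes. NOTUM was at 4133 ± 1263 (SD, n = 2) in EPZ-6438 with siMCRS1 against 3669 ± 61.5 (SD, n = 3) in DMSO with siMCRS1. The interaction, the difference between the siMCRS1 effects in EPZ-6438 and DMSO, was called at none of the 10 by limma, edgeR or DESeq2 and at 0% of all genes by limma, with 336 genes at an unadjusted p under 0.05. Over all genes edgeR called 0 and DESeq2 5. The interaction was largest at NOTUM (log2 -0.69 ± 0.23 (SE), unadjusted p = 0.0111, limma adjusted p = 1), the only member with an unadjusted p under 0.05.

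**Figure D3:**
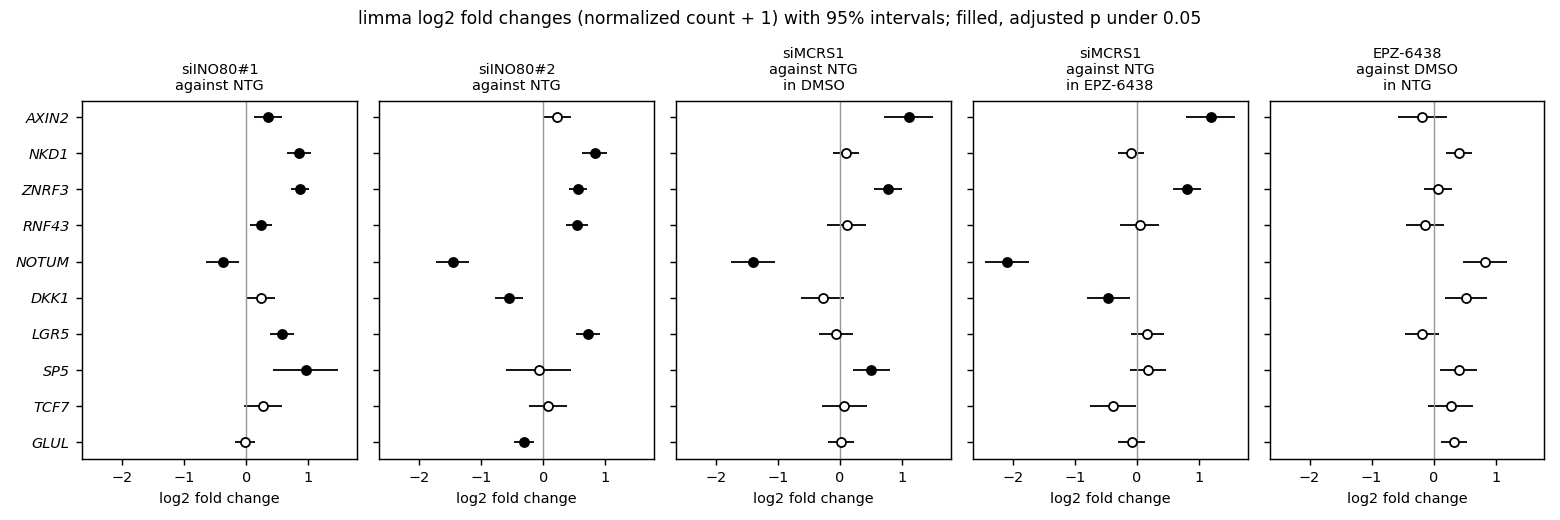
limma log2 fold changes of the 10 members (horizontal axes) in 5 comparisons, with 95% intervals and filled points where the adjusted p was under 0.05. ZNRF3 is right of 0 and NOTUM left of 0 in each of the 4 siRNA panels, and every point in the EPZ-6438 panel is open.

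The rest of the pathway was read through 128 other listed genes, of which 127 were in the tables and 85 or 87 passed the filter. With siINO80#1, 34 of 85 were higher and 11 lower, against 20.7% and 20.8% of all tested genes, and with siINO80#2, 33 and 18, against 26.6% and 28.4%. With siMCRS1, 32 of 87 were higher and 15 lower in DMSO, against 23.1% and 24.6%, and 36 and 14 in EPZ-6438, against 26.8% and 26.9%. The medians were 0.20, 0.23, 0.34 and 0.33 on the log2 scale, in that order. Between the siRNAs against INO80, 9 of 85 were higher and 12 lower with siINO80#2, close to the 9.48% and 12.6% of all tested genes. At equal totals the calls were 27 higher and 12 lower with siINO80#1 and 26 and 19 with siINO80#2. Of all 14034 genes, 2165 were then higher and 3276 lower with siINO80#1, and 2856 and 4526 with siINO80#2. With siMCRS1 the list had 25 higher and 19 lower in DMSO and 25 and 17 in EPZ-6438. Of all 14312 genes, 1894 were then higher and 5098 lower in DMSO, and 2296 and 5313 in EPZ-6438. No called gene of the list changed direction. For EPZ-6438 against DMSO limma and edgeR called none of the 87 with NTG or with siMCRS1. With limma 19 of the 87 had an unadjusted p under 0.05 in each case, against 2443 of 14312 genes with NTG and 1305 with siMCRS1. DESeq2 called 10 with NTG (8 higher) and 3 with siMCRS1, all higher, against 721 and 150 of all genes.

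**Figure D4:**
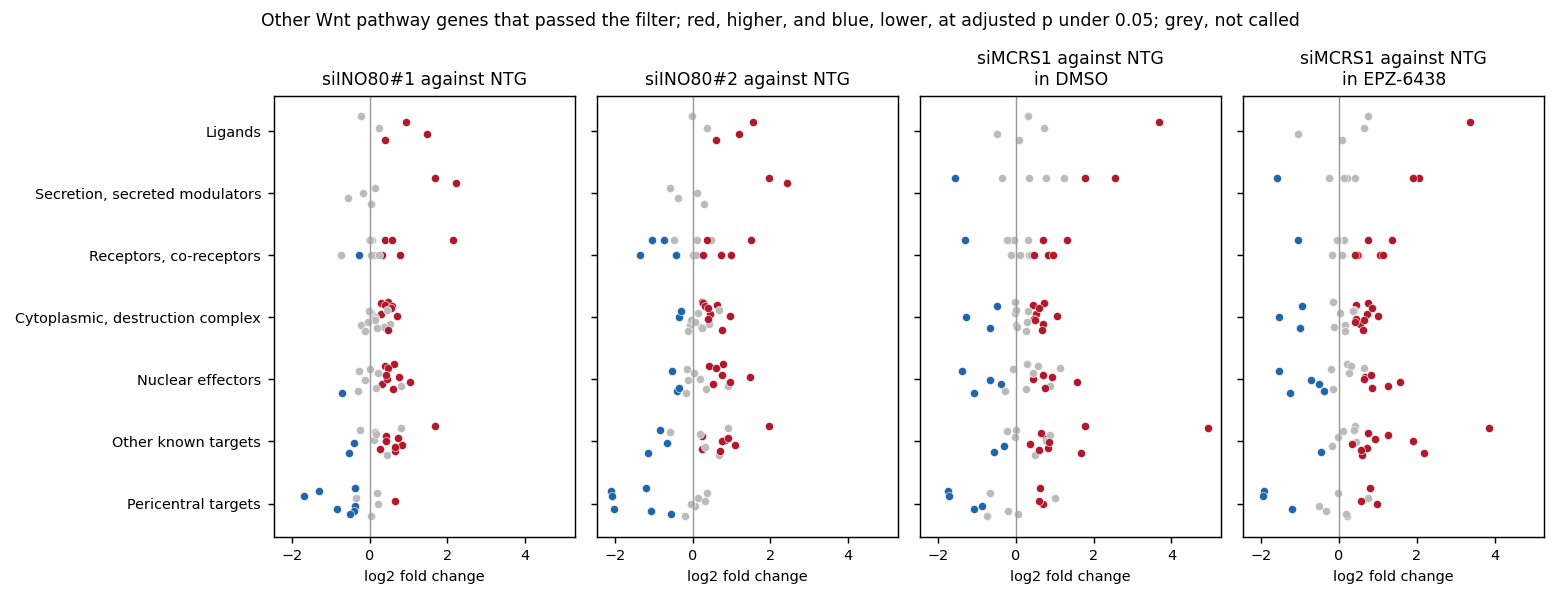
log2 fold changes (horizontal axes) of the other pathway genes that passed the filter, by role (vertical axis), in the 4 siRNA comparisons, with called genes in red (higher) and blue (lower). The lowest points of the pericentral row are RHBG, SLC1A2 and, with siINO80#2, SLC13A3.

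Few Wnt ligands were expressed: 5 of 19 passed the filter. With siINO80#1 and siINO80#2, 3 were higher in each and none lower, against 20.7% and 26.6% of all tested genes called higher. Among those called with each siRNA were WNT7B (133 normalized counts in NTG, 255 and 393 with the siRNAs, log2 0.94 and 1.56, limma adjusted p = 0.00188 and 3.89e-05) and WNT3 (0.40 and 0.61). With siMCRS1, WNT7B was at -0.48 under DMSO and -1.05 under EPZ-6438 and was not called (limma adjusted p = 0.679 and 0.329). Among secreted modulators and the secretion machinery, PORCN, the acyltransferase that makes Wnt ligands secretable, was lower with siMCRS1 (log2 -1.55 under DMSO and -1.61 under EPZ-6438, limma adjusted p = 0.000173 and 9.47e-05) and not called with the siRNAs against INO80. APCDD1, a membrane inhibitor that binds Wnt and LRP, rose from 23.9 to 78.8 and 94.9 with siINO80#1 and siINO80#2 and from 23.9 to 91.8 with siMCRS1 in DMSO. In EPZ-6438, where its NTG libraries averaged 154, APCDD1 was at 219.7 with siMCRS1 and was not called (0.42, limma adjusted p = 0.516). DKK4, a relative of DKK1, was higher with siMCRS1 in EPZ-6438 (1.91, limma adjusted p = 0.0086), the comparison in which DKK1 was lower.

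Of 19 receptors and co-receptors 14 passed the filter. The calls were 5 higher and 1 lower with siINO80#1, 5 and 4 with siINO80#2, 5 and 1 with siMCRS1 in DMSO, and 7 and 1 in EPZ-6438. In that order, the shares of all genes were 20.7% and 20.8%, 26.6% and 28.4%, 23.1% and 24.6%, and 26.8% and 26.9%. The calls with siINO80#2 were close to its shares. RYK, a Wnt-binding receptor of the kinase family, was higher in all 4 comparisons (0.77, 0.99, 0.97 and 1.13 in that order, limma adjusted p from 3.11e-06 to 6.01e-05). The co-receptor LRP5 was also higher in all 4 (0.57, 0.36, 0.70 and 0.75), and LRP6 rose most with siMCRS1 (0.84 and 1.07). Among the Frizzled receptors, FZD4 was higher with siINO80#1 (0.39) and lower with siINO80#2 (-1.04, limma adjusted p = 6.95e-05), FZD1 was lower with siINO80#2 (-0.74) and siMCRS1 (-1.31 and -1.06), and FZD3 was higher with siINO80#2 (0.73).

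Of 21 cytoplasmic components 20 passed the filter, and the calls ran to 8 higher and 0 lower with siINO80#1, 9 and 2 with siINO80#2, 9 and 3 with siMCRS1 in DMSO, and 10 and 3 in EPZ-6438. Over all genes the shares were again 20.7% and 20.8%, 26.6% and 28.4%, 23.1% and 24.6%, and 26.8% and 26.9%. CSNK1E, a casein kinase that acts on Dishevelled and LRP6, was higher in all 4 comparisons (0.70, 0.95, 1.07 and 1.00, limma adjusted p from 1.52e-06 to 0.000135). So was GSK3B, a β-catenin kinase of the destruction complex (0.47, 0.76, 0.68 and 0.62), and AXIN1, its scaffold (0.30, 0.26, 0.72 and 0.75). DVL2 and DVL3, which carry the signal from Frizzled, fell with siMCRS1: DVL2 was at -1.27 in DMSO and -1.54 in EPZ-6438, and DVL3 at -0.67 and -1.01. DVL1 was higher with siINO80#1 and siINO80#2 (0.59 and 0.33) and lower with siMCRS1 (-0.49 and -0.94). APC, the other scaffold, was called in none of these comparisons (0.03, 0.13, -0.03 and 0.04, limma adjusted p from 0.276 to 0.902).

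Among nuclear effectors, CTNNB1, the gene for β-catenin, was higher with siINO80#1 (0.44, limma adjusted p = 0.00884) and with siMCRS1 in DMSO (0.44, 0.0037) and EPZ-6438 (0.64, 0.000288), and was not called with siINO80#2 (0.19, 0.171). TCF7L2, a relative of TCF7, was higher in all 4 (0.42, 0.75, 0.69 and 0.83, limma adjusted p from 0.00161 to 0.0427), whereas TCF7 was called in none. LEF1 was low, with group means of 6.71 to 36.8, and was called only with siMCRS1 in EPZ-6438 (1.27, limma adjusted p = 0.0405). The co-repressor TLE4 rose in all 4 (1.04, 0.95, 1.58 and 1.57), as did BCL9, a β-catenin co-activator (0.77, 1.48, 0.93 and 0.66). CBY1, which binds β-catenin and keeps it from TCF factors, fell with siINO80#2 (-0.54) and siMCRS1 (-1.39 and -1.55). In all, 9 of 17 effectors were higher and 1 lower with siINO80#1, 7 and 3 with siINO80#2, 5 and 4 with siMCRS1 in DMSO, and 6 and 5 in EPZ-6438. The matching shares of all genes were 20.7% and 20.8%, 26.6% and 28.4%, 23.1% and 24.6%, and 26.8% and 26.9%. The effector calls with siMCRS1 in DMSO were close to its shares.

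The other known targets and the pericentral targets were counted apart, with no test of the difference between these lists, against the shares of all genes given above. Of 16 other targets 8 were higher and 2 lower with siINO80#1 and 8 and 3 with siINO80#2, and of 17, 9 and 2 with siMCRS1 in DMSO and 10 and 1 in EPZ-6438. JAG1, a Notch ligand, rose from 6409 normalized counts in NTG to 11402 and 13582 with the siRNAs against INO80 (log2 0.83 and 1.08, limma adjusted p = 5.78e-05 and 5.05e-06). With siMCRS1 it rose from 11268 to 36176 in DMSO (1.68, 0.000985) and from 6535 to 29894 in EPZ-6438 (2.18, 0.000151). BIRC5, the gene for survivin, was lower in all 4 (-0.53, -1.14, -0.55 and -0.47).

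Of 14 pericentral targets other than the members, 12 passed the filter. With siINO80#1, 1 was higher (TBX3) and 7 lower, with siINO80#2 none was higher and 6 lower, and with siMCRS1 3 were higher (OAT, TBX3 and ALDH1A1) and 4 lower in DMSO and 3 lower in EPZ-6438. SLC1A2, a glutamate transporter, fell from 1454 in NTG to 451 and 344 with the siRNAs against INO80 (-1.69 and -2.08 on the log2 scale, limma adjusted p = 0.000105 and 1.33e-05). With siMCRS1 it fell from 1283 to 390.3 in DMSO (-1.73, 0.000696) and from 2401 to 609 in EPZ-6438 (-1.96, 0.000241). RHBG, an ammonium transporter, fell in all 4 (-1.29, -2.11, -1.73 and -1.92), and so did SLC13A3, a dicarboxylate transporter (-0.85, -2.02, -1.06 and -1.21). ALDH1A1, an enzyme that makes retinoic acid, went in opposite directions, lower with the siRNAs against INO80 (-0.38 and -1.20) and higher with siMCRS1 (0.61 and 0.80). GLUL, the pericentral enzyme among the members, was called lower with siINO80#2 alone among the siRNA comparisons with NTG.

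The liver transcription factor HNF4A was lower in the same 4 comparisons (-0.45, -1.02, -0.55 and -0.55, limma adjusted p from 1.87e-06 to 0.0165), and its part in these falls was not tested. Of the 13 hepatocyte and hepatoma markers, HNF4A among them, 1 was higher and 1 lower with siINO80#1, 1 and 6 with siINO80#2, 1 and 2 with siMCRS1 in DMSO, and 1 and 3 in EPZ-6438, against the shares of all genes given above. The higher marker was APOA2 with each siRNA against INO80 (0.29 and 0.42), FOXA2 with siMCRS1 in DMSO (0.51) and ALB with siMCRS1 in EPZ-6438 (0.57). Of the markers of other cell types, 1 was higher and 1 lower of 6 with siINO80#1, 2 and 2 with siINO80#2, and of 9, 1 and 1 with siMCRS1 in DMSO and 1 and 2 in EPZ-6438, against the same shares of all genes. Among them ACTA2, a smooth muscle actin, fell in all 4 (-1.71, -1.16, -1.87 and -2.23). COL1A1, a collagen chain, rose with siMCRS1 in both treatments (1.25 and 2.91, limma adjusted p = 0.0337 and 0.000267) and fell with siINO80#2 (-0.63, 0.049). PDGFRB, a receptor of mesenchymal cells, rose with siINO80#1 and siINO80#2 (1.00 and 0.46, limma adjusted p = 0.000822 and 0.038).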

How the data were processed

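mRNA was sequenced from HepG2 cells in stranded libraries. The submitters' processing notes name kallisto, DESeq2 and GRCh38 without versions, roles or order, the annotation is not given in the sources used here, and the text of the paper does not describe these libraries. The authors deposited 1 table for each experiment, and its signal values are gene counts scaled by a factor for each library. The smallest step of a library, taken as 1 read, returned whole reads for 100% of values (tolerance 0.01 reads). A floor of 3 reads equals 2.30 to 3.58 normalized counts in the first experiment and 2.13 to 4.30 in the second, and covers counting error only. Replicates differed by more than sampling noise in all pairs (chi-square per degree of freedom 9.45 to 121). In the first experiment siINO80#2 replicate C stood apart, at 84.3 and 121 against the other 2 of its group and 18.7 or less in every other pair, and without it the same number of members, 7, was called with siINO80#2.

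Genes averaging 10 or more normalized counts were tested with limma 3.58.1 (R 4.3.3, trended eBayes) on log2(value + 1), with all groups of a table in 1 fit, and Benjamini-Hochberg adjustment over all tested genes. Fold changes on this scale understate those of low genes. edgeR 4.0.16 and DESeq2 1.42.0 on the recovered reads, other filters, pseudocounts of 0.1 and 5, other scalings, a fit of only the groups compared, a replicate block and leaving out each library were alternatives. The script was tested on simulated data. The members and lists were chosen with earlier results of these data known. Of the other lists, genes were named if called and among the 3 with the largest change in a comparison, with a mean of at least 50. INO80, MCRS1, EZH2, CTNNB1, APC, LEF1 and TCF7L2 were named in any case, as were the markers. OAT and TBX3 fall outside this rule and were named after their values were seen. Transcript lengths and overlapping genes came from GENCODE on GRCh37, used for no coordinates, and promoters and positions from RefSeq on GRCh38.p14.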

Additional observations from a re-analysis of the deposited data

How the results depend on the processing

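Over the 10 members and their alternatives, 1630 of 1690 values kept their side of the threshold, 30 gained a call and 29 lost one. Of the 1630, 50 had the other sign, none of them called. GLUL reversed with siMCRS1 in DMSO under quantile normalization, where it was called lower (-0.27, adjusted p = 0.0464, against 0.01 as reported). The cause was not tested. Of the members called with siINO80#1, 7 as reported, 4 to 9 were called when a library was left out, with the lowest without siINO80#1 replicate B. With siMCRS1 in EPZ-6438, 7 were called in place of 4 at equal totals and under quantile normalization. With EPZ-6438 in NTG cells, 0 members as reported became 1 (NOTUM) under quantile normalization or with only the groups compared, 4 with DESeq2, 5 with the column number as a block, and 0 to 1 without a library. Counts over all genes moved by over 1.5 times under 11 of 22 alternatives with EPZ-6438 in NTG cells, 13 of 21 with EPZ-6438 in siMCRS1 cells, 4 of 20 for the interaction, 2 of 21 with siINO80#2 against siINO80#1, 1 of 21 with siMCRS1 in EPZ-6438 and none of the other siRNA comparisons. With siINO80#2 against siINO80#1, 3096 became 1948 and 2042 without siINO80#1 replicates A and C. With siMCRS1 in EPZ-6438, 7686 became 5070 without EPZ-6438 with siMCRS1 replicate B. With EPZ-6438 in NTG cells, 55 became 20 without a filter, 85 with quantile normalization, 19 without a trend, 128 with only the groups compared, 721 with DESeq2, 2138 with the block and as few as 2 without DMSO with NTG replicate 3. With EPZ-6438 in siMCRS1 cells, 13 became 4, 7, 3 and 150 without a filter, without a trend, with only the groups compared and with DESeq2, and 0 to 26 without a library. For the interaction, 0 became 5 with DESeq2 and 1 to 3 without DMSO with siMCRS1 replicates 1 or 3 or EPZ-6438 with NTG replicate 1.

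The INO80 libraries were not treated as paired by replicate letter, since not every pair correlated over 0.1. Same-letter deviations correlated at -0.08 to 0.26 (mean 0.10, 5 of 9 pairs over 0.1), and those of other letters at -0.25 to 0.10 (mean -0.05, 2 of 18). Deviations were taken from group means, so other-letter values are tied to same-letter ones and give no separate baseline. With the letter as a replicate block, AXIN2 was called with siINO80#2 (0.23, limma adjusted p = 0.00996), and no other member's call changed. In the drug experiment, libraries with the column numbers 1 and 3 correlated at 0.24 to 0.33 across 3 pairs of groups, but the labels give letters, so this block was added after seeing the data. With it, DKK1 was also called with siMCRS1 in DMSO (-0.34, limma adjusted p = 0.00335).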

Other observations

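Patterns over siINO80#1, siINO80#2, siMCRS1 in DMSO, NTG in EPZ-6438 and siMCRS1 in EPZ-6438 were compared by the root mean square difference over these 5 group means. Each group mean was taken minus the control siRNA of its experiment on the log2 scale. AXIN2 and GLUL were compared with 11419 other genes, and the other members only with members. The genes most like AXIN2 were ZNF143 (0.057), RSL24D1 (0.063) and NUDT4P1 (0.078). Those most like GLUL were DHCR7, an enzyme of cholesterol synthesis (0.031), LCMT2 (0.067) and NDUFA3, a subunit of mitochondrial complex I (0.072). Among the members, LGR5 and RNF43 were the most alike pair (0.19), and AXIN2 and NOTUM the least alike (1.78). AXIN2 was closest to ZNRF3 (0.34) and GLUL to DKK1 (0.24). These are descriptions with no test, and the 5 points share control libraries within each experiment.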
